A study of Homo sapiens with 60 samples.

Results

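The keratin genes described here are 7 genes, KRT4, KRT7, KRT8, KRT18, KRT19, KRT80 and KRT81, out of 60675 gene IDs counted by RNA sequencing. The cells were A549, a widely used line grown from a human lung carcinoma. KRT4 was chosen by its measured low level after dried ginger in these same libraries, and the other 6 were set beside it as keratins that this epithelial line makes. The dried ginger values that chose KRT4 are given as a description, with no test. All 7 genes passed the filter on low counts in every comparison.

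Each of 8 herbal extracts was given to the cells for 24 h at 3 doses, called low, medium and high, and no label names a genetic change in any group. Water extracts of Sayeok-tang (n = 3 libraries per dose) and Bojungikgi-tang (n = 2) were given at 20, 100 and 500 µg/mL. The same 3 doses were used for ethanol extracts of Zingiberis Rhizoma Recens (fresh ginger), Zingiberis Rhizoma (dried ginger) and Pinelliae Tuber, while Scutellariae Radix, also an ethanol extract, was given at 7.6, 38 and 190 µg/mL (n = 3 per dose each). Coptidis Rhizoma, at 4.4, 22 and 110 µg/mL, and Zizyphi Fructus, at 20, 100 and 500 µg/mL, were ethanol extracts with 1 library per dose. The vehicle group, DMSO alone, had 3 libraries. These 60 libraries formed 25 groups and held 17.51 to 38.54 M counts, with a median of 23.53 M. The labels do not say whether libraries of 1 group came from separate cultures, so the p-values measure a spread that may be technical in part.

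Keratins are the intermediate filament proteins of epithelial cells. A filament is built from pairs of 1 acidic type I chain and 1 basic type II chain, so neither type forms filaments alone. KRT8 (type II) and KRT18 (type I) are the first pair made in simple, single-layered epithelium, and KRT7 (type II) and KRT19 (type I) accompany them in duct and airway linings. KRT4 (type II) is known from the upper layers of moist stratified linings such as the oesophagus, where its partner is KRT13. KRT80 (type II) is found in many epithelia near desmosomes, and KRT81 (type II) is a hair-shaft keratin.

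The type II genes lie together on chromosome 12, and KRT18, a type I gene, lies beside KRT8. On GRCh38 with the GENCODE 29 annotation, KRT80 (ENSG00000167767) spans chr12:52168996-52192000, KRT7 (ENSG00000135480) chr12:52232520-52252186 and KRT81 (ENSG00000205426) chr12:52285913-52291534. KRT4 (ENSG00000170477) spans chr12:52806549-52814551 and KRT8 (ENSG00000170421) chr12:52897187-52949954, both on the minus strand. KRT18 (ENSG00000111057) spans chr12:52948871-52952901 on the plus strand, and its annotated span shares 1084 bases with that of KRT8 on the opposite strand. KRT19 (ENSG00000171345) lies with most type I keratins on chromosome 17, at chr17:41523617-41528308.

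Of the 7 members, RefSeq promoter windows (GRCh38.p14) were at hand for 2, KRT4 and KRT8. The stretch that ends close to the start of KRT4 is shown because KRT4 is the member whose level varied most, with the letters TATAA, the core of a TATA box, in capitals. It covers chr12:52814127-52814156 on the minus strand, and it lies in exon 1 of the GENCODE 29 transcript ENST00000551956.1, in its 5′ UTR.
KRT4: gctccaggacaTATAAgagacgaaggctga
The capitals begin 29 bases before the RefSeq start. In the 250 bases before that start, searched on both strands, TATAA was found 1 time, and 18.9% of 35116 promoter windows of that length hold it. No match was found for GGGCGG (GC box, in 42.6% of windows), TGANTCA (AP-1 site, 6.57%) or GCGTG (core of the aryl hydrocarbon receptor element, 32.2%).

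Levels per gene are given in CPM, counts scaled to a common library total, with TMM factors, which remove differences in overall composition between libraries. To compare genes with each other, CPM was divided by the length of the principal transcript in kb. On that scale the 7 keratins fell into a high set and a low set. The median level over the 60 libraries was 2124 CPM per kb for KRT81, 1775 for KRT8, 1634 for KRT18 and 1136 for KRT7. The median level was 32.9 CPM per kb for KRT80, 15.4 for KRT19 and 10.8 for KRT4. Within each set neighbours in this order overlapped over the libraries, apart from KRT80 (lowest 28.5) and KRT19 (highest 22 CPM per kb). The 4 high genes therefore carry nearly all of the keratin counts, and KRT4 is a minor keratin of these cells. The 7 genes together took 0.963 to 1.35% of all counts in a library.

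**Figure D1:**
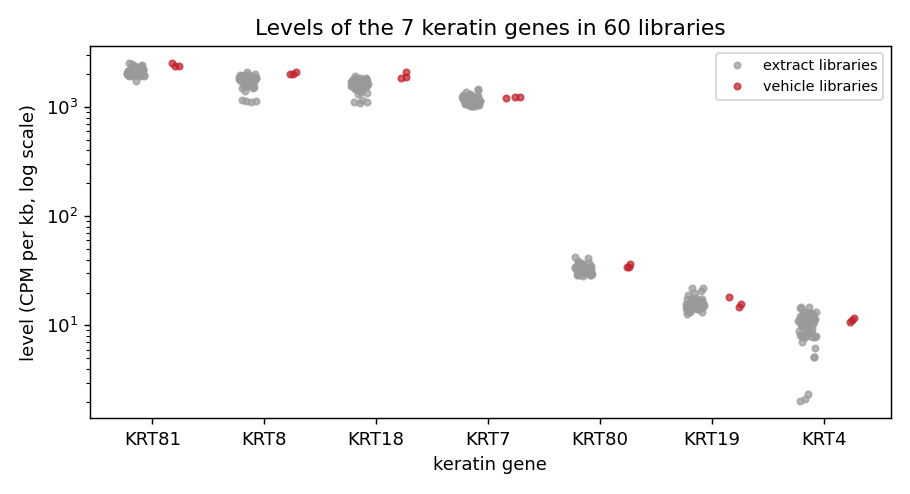
Levels of the 7 keratin genes in CPM per kb on a log scale, ordered by median, 1 point per library (57 extract libraries in grey left of the 3 vehicle libraries in red). KRT81, KRT8, KRT18 and KRT7 lie at 1012 CPM per kb or more, and KRT80, KRT19 and KRT4 at 41.9 or less; the lowest KRT4 points, down to 2.02, are the high dose of dried ginger.

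A level can be less certain where a gene has near-identical copies. KRT8, KRT7, KRT18 and KRT81 had non-whole estimated counts in at least 98.3% of libraries, which means that some of their reads were divided with other loci, while KRT4 and KRT19 had whole counts in all libraries. The 51 KRT8 pseudogenes together reached at most 0.522% of the KRT8 level, and the 67 KRT18 pseudogenes at most 0.14% of the KRT18 level. KRT86, KRT83 and KRT87P, the close relatives of KRT81, together reached at most 1.66% of the KRT81 level. The library kit keeps strand, but the strand setting of the counting is not given in the sources used here, so for KRT8 and KRT18 in their overlap, and for KRT7 and its antisense gene KRT7-AS (24 to 43.2 CPM), a split by strand was not checked.

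A549 identity was checked with its markers. The aldehyde dehydrogenase gene ALDH1A1 averaged 6326 CPM and the aldo-keto reductase gene AKR1B10 averaged 2932 CPM, while CDKN2A, which A549 is known to have lost, was at 0 in all 60 libraries. Of the markers of other cells, CD3E was at 0 in all libraries, and PTPRC, PECAM1, DCN, KRT5 and KRT14 averaged under 0.1 CPM. The basal keratinocyte list summed to between 8.66 and 13 CPM in a library, most of it TP63 (mean 9.03 CPM). The fibroblast list summed to between 23.5 and 44 CPM (5 of 8 members under 1 CPM, most of the sum COL1A1), the endothelial list to between 4.25 and 12 CPM (5 of 6 under 1 CPM, mostly ESAM) and the leukocyte list to between 6.48 and 18.2 CPM (4 of 6 under 1 CPM, mostly CD68). Some of these moved with dose, such as CD68 (0.57 ± 0.10) and COL1A1 (-0.40 ± 0.05) between the high and low dose of Sayeok-tang, and their part in the keratin values was not tested. EPCAM, an epithelial adhesion gene, was low, at a mean of 5.04 CPM, and CDH1 (E-cadherin) averaged 31.5 CPM.

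Tests used edgeR's quasi-likelihood F-test, and p-values were adjusted by Benjamini-Hochberg over all genes tested in a comparison. A gene was called when its adjusted p was under 0.05. Changes are log2 changes with their standard error from the fit, where -1 is a halving of the level and 1 a doubling. The cleanest contrast for dose is the high against the low dose of the same extract, because neither side of it is the vehicle group. The vehicle libraries still entered each fit, and with it the count filter, the scaling factors and the estimate of spread.

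KRT4 showed the widest range of the 7 genes, and its level went down with dose in several extracts. KRT4 was 27.8, 28.7 and 30.2 CPM in vehicle. In dried ginger it was 28.3, 28.7 and 26.8 CPM at 20 µg/mL, 20.1, 20.9 and 20.6 CPM at 100 µg/mL, and 5.2, 5.4 and 6.03 CPM at 500 µg/mL. The 3 doses did not overlap, and the low dose lay within or just below the vehicle libraries. The log2 change was -2.32 ± 0.06 for the high against the low dose and -2.36 ± 0.06 for the high dose against vehicle. At the high dose KRT4 counts were as low as 122 in a library, so its level there rests on fewer reads than elsewhere. In bulk RNA, fewer cells that make a transcript and less of it per cell cannot be told apart. The next lowest group was the single high-dose Coptidis Rhizoma library at 13.4 CPM.

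KRT4 fell between the low and high dose in 3 of the 5 other replicated extracts, fresh ginger among them. The labels do not list the herbs in Sayeok-tang, so these extracts cannot be counted as unrelated to dried ginger. In Sayeok-tang it was 27.7, 28.4 and 25.8 CPM at 20 µg/mL, 20.2, 22.1 and 21.2 CPM at 100 µg/mL, and 16, 18.2 and 13.1 CPM at 500 µg/mL. These 3 doses did not overlap either, and the fall reached -0.80 ± 0.07 (adjusted p = 9.71e-10), or 42.6% less at the high dose. In Scutellariae Radix it was 33.6, 32.4 and 34.6 CPM at 7.6 µg/mL, 37.7, 30.5 and 34.1 CPM at 38 µg/mL, and 22.2, 20.3 and 20.3 CPM at 190 µg/mL. The low and medium doses overlapped and lay above every vehicle library, and only the high dose was low, with a log2 change of -0.68 ± 0.07 against the low dose (adjusted p = 3.56e-09). In fresh ginger KRT4 was 31.3, 31.6 and 30.4 CPM at 20 µg/mL, 30.3, 29.7 and 31.1 CPM at 100 µg/mL, and 22.3, 22.9 and 24 CPM at 500 µg/mL. Here too only the high dose stood below the others, by -0.43 ± 0.05 against the low dose (adjusted p = 2.33e-06).

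KRT4 was not called in the other pair of extracts. In Bojungikgi-tang it was 23.8 and 22.8 CPM at the high dose, against 27.2 and 26.1 CPM at the low dose, a log2 change of -0.19 ± 0.08 (adjusted p = 0.438; 95% interval -0.35 to -0.03). In Pinelliae Tuber it was 36.7, 31.6 and 38.1 CPM at the high dose, against 33.7, 31.2 and 31.6 CPM at the low dose, a log2 change of 0.14 ± 0.07 (adjusted p = 0.738; interval 0.01 to 0.27). The Pinelliae Tuber libraries overlapped between doses, and the high dose held the highest KRT4 of all groups, 35.5 ± 3.45 CPM (SD, n = 3). Over the 25 groups KRT4 ran from that value to 5.54 ± 0.433 CPM in high-dose dried ginger (SD, n = 3), a 6.4-fold range. Between those ends most groups, vehicle among them, had means between 26.6 and 34.5 CPM, where neighbours in the order lay within the spread between libraries (pooled SD 1.68 CPM).

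**Figure D2:**
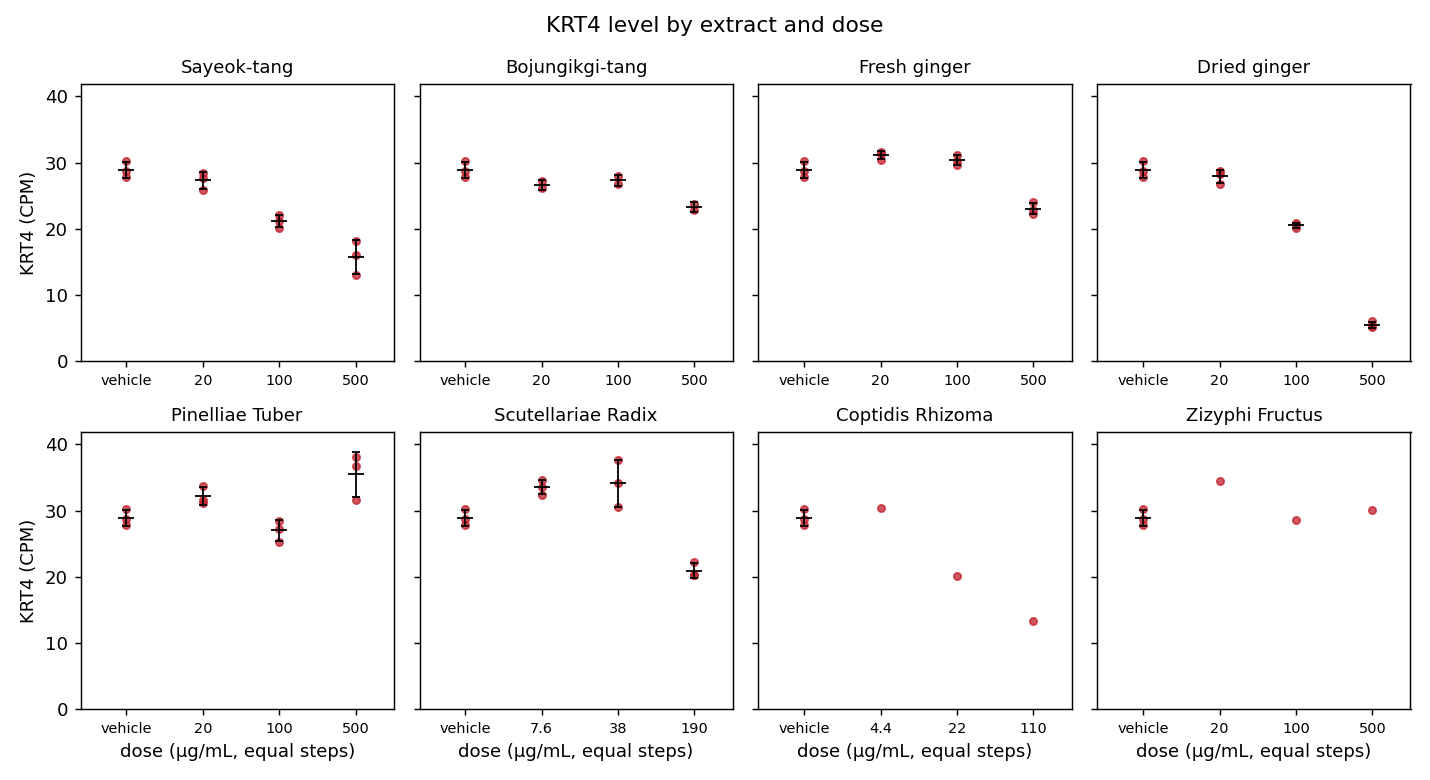
KRT4 level in CPM (linear axis from 0) in each library, 1 panel per extract, with vehicle and then doses in µg/mL rising to the right in equal steps; points are libraries, and black bars the mean ± SD where a group has 2 or 3 libraries. Levels go down step by step in dried ginger, Sayeok-tang and Coptidis Rhizoma, drop at the highest dose in fresh ginger and Scutellariae Radix, and stay above 25 CPM in Pinelliae Tuber and Zizyphi Fructus.

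KRT8 and KRT18, the simple-epithelium pair, both fell between the low and high dose in Sayeok-tang and fresh ginger. In Sayeok-tang, KRT8 was 2636, 2698 and 2632 CPM at the high dose, against 3350, 3249 and 3111 CPM at the low dose, and fell by 0.29 on the log2 scale (SE 0.03, adjusted p = 9.4e-10). KRT18 was 1916, 2028 and 1931 CPM at the high dose, against 2472, 2401 and 2360 CPM at the low dose, and its log2 change was -0.30 ± 0.03 (adjusted p = 6.31e-08). Neither gene's high-dose libraries reached the low-dose ones. These are falls of 18.2% for KRT8 and 19.0% for KRT18, beside 42.6% for KRT4.

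Fresh ginger showed smaller falls in the same pair. KRT8 was 2745, 2803 and 2724 CPM at the high dose, against 3358, 3161 and 3142 CPM at the low dose, with a log2 change of -0.22 ± 0.05 (adjusted p = 0.0025). KRT18 was 2094, 2044 and 2068 CPM at the high dose, against 2447, 2252 and 2316 CPM at the low dose, with a log2 change of -0.18 ± 0.05 (adjusted p = 0.0303). The KRT18 call was lost in 5 of the 6 fits that left out 1 library (adjusted p = 0.0694 to 0.222), without fresh ginger high-dose libraries 1, 2 and 3 and low-dose libraries 1 and 3 in turn. The KRT8 call held in all 6.

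In Scutellariae Radix KRT8 fell and KRT18 missed the threshold. KRT8 was 2946, 2754 and 2846 CPM at the high dose, against 3111, 3319 and 3494 CPM at the low dose, with a log2 change of -0.21 ± 0.04 (adjusted p = 1.31e-05). KRT18 was 2326, 2209 and 2319 CPM at the high dose, against 2367, 2438 and 2757 CPM at the low dose, with a log2 change of -0.14 ± 0.06 (adjusted p = 0.0637). The KRT18 libraries did not overlap between these doses, and DESeq2 (adjusted p = 0.0483), the fit of all 60 libraries (0.0126), the fit without a count filter (0.00606) and the fit with a replicate block (0.00867) called the change. Bojungikgi-tang gave -0.06 ± 0.03 for KRT8 and -0.04 ± 0.04 for KRT18, and Pinelliae Tuber 0.05 ± 0.04 and 0.06 ± 0.06, none of them called.

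Dried ginger held the lowest KRT8 and KRT18 of all groups. KRT8 was 2020, 1975 and 1934 CPM at the high dose, against 3037, 3110 and 3024 CPM at the low dose, a log2 change of -0.63 ± 0.05. KRT18 was 1592, 1566 and 1536 CPM at the high dose, against 2227, 2250 and 2231 CPM at the low dose, a log2 change of -0.52 ± 0.05. For both genes the medium dose lay close to the low dose, with KRT8 at 3002, 2926 and 2979 CPM and KRT18 at 2103, 2117 and 2267 CPM.

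KRT7, the second type II keratin of simple epithelium, was called lower at the high than the low dose in none of the 5 tested extracts. In Scutellariae Radix it was 2572, 2281 and 2311 CPM at the high dose, against 1968, 1886 and 1991 CPM at the low dose, and rose by 0.30 ± 0.04 (adjusted p = 2.72e-06). In Sayeok-tang it was 2067, 2155 and 2226 CPM at the high dose, against 1983, 1947 and 1958 CPM at the low dose, a rise of 0.13 ± 0.03 (adjusted p = 0.0042). The high-dose libraries lay above the low-dose ones in both extracts. Without high-dose Sayeok-tang library 3 the Sayeok-tang change was 0.10 (adjusted p = 0.0627), and in the fit of all 60 libraries it was 0.13 (adjusted p = 0.114). Dried ginger had 2186, 2141 and 2089 CPM at the high dose, against 1884, 1854 and 1848 CPM at the low dose, a log2 change of 0.20 ± 0.05. Fresh ginger was not called, at -0.03 ± 0.05 (95% interval -0.14 to 0.07).

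KRT19, the small type I keratin of simple epithelium, was measured at low counts (393 to 1074 per library). In Sayeok-tang it was 24.8, 24.1 and 22.9 CPM at the high dose, against 20.3, 21.1 and 19.8 CPM at the low dose, a rise of 0.23 ± 0.06 (adjusted p = 0.0201). Leaving out 1 library ended that call in 4 of 6 fits (adjusted p = 0.0669 to 0.108; high-dose libraries 1 and 2, low-dose libraries 1 and 3), and DESeq2 did not make it (adjusted p = 0.0725). In dried ginger it was 30.4, 28.8 and 27.3 CPM at the high dose, against 21.9, 20.3 and 18.5 CPM at the low dose, a log2 change of 0.51 ± 0.08. KRT19 was therefore high in the groups where KRT4, KRT8 and KRT18 were lowest, and the single high-dose Coptidis Rhizoma library had its highest level, 30.6 CPM.

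KRT80 rose in Scutellariae Radix, with 143, 138 and 144 CPM at the high dose, against 111, 120 and 124 CPM at the low dose (0.26 ± 0.04, adjusted p = 5.12e-06). In Pinelliae Tuber it was 140, 134 and 144 CPM at the high dose, against 118, 125 and 125 CPM at the low dose, a log2 change of 0.18 ± 0.04 that missed the threshold (adjusted p = 0.0644). The libraries did not overlap in either extract. In dried ginger KRT80 was 132, 129 and 125 CPM at the high dose, against 113, 115 and 116 CPM at the low dose, a log2 change of 0.16 ± 0.04. KRT81, the most abundant of the 7, was called in none of the 5 tested dose contrasts, with log2 changes of -0.10 to 0.07. Its pooled SD between libraries of 1 group was 219 CPM, or 5.28% of its mean.

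**Figure D3:**
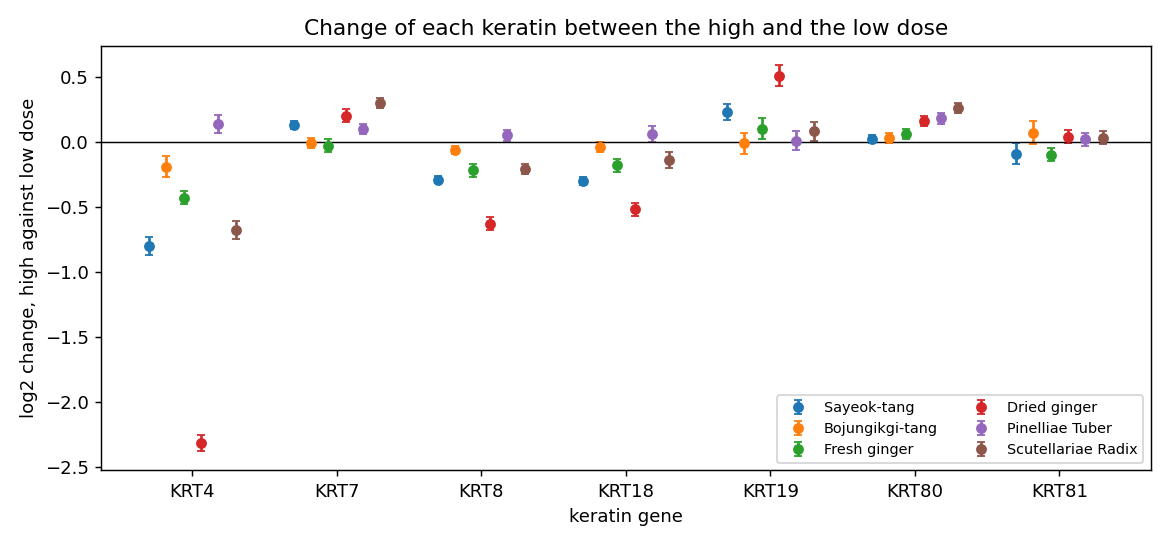
Log2 change of each keratin for the high against the low dose in the 6 replicated extracts, with bars for ± 1 standard error derived from the edgeR F statistic. KRT4, KRT8 and KRT18 lie below 0 in Sayeok-tang, fresh ginger, dried ginger and Scutellariae Radix, KRT7, KRT19 and KRT80 lie mostly at or above 0, and the dried ginger KRT4 point at -2.32 is far below all others.

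The counts of called genes have to be read against how much of the transcriptome moved. Between the high and low dose, Sayeok-tang called 5 of the 7 keratins (2 higher, 3 lower) and 7.58% of all 16723 genes tested were called. Fresh ginger called 3 of 7, all lower, with 3.67% of all genes called. Scutellariae Radix called 4 of 7 (2 higher, 2 lower), with 31.0% of all genes called, so keratin calls there stand beside a far broader change. Bojungikgi-tang called 0 of 7 (1 at an unadjusted p under 0.05, 0 by DESeq2), with 0.712% of all genes called. Pinelliae Tuber called 0 of 7 (3 at an unadjusted p under 0.05, 1 by DESeq2), with 0.0663% of all genes called. In dried ginger 6 of the 7 keratins had high- and low-dose libraries that did not overlap, as did 46.1% of all genes, and edgeR called 32.8% of all genes there.

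The median log2 change of the 7 keratins was -0.09 in Sayeok-tang, -0.10 in fresh ginger and 0.03 in Scutellariae Radix, beside medians over all genes of -0.001, 0.001 and 0.004. The members went in both directions.

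The ratio of KRT8 to KRT18, both per kb, lay between 0.96 and 1.16 in all 60 libraries. It was 1.02 ± 0.0042 in high-dose dried ginger, 1.10 ± 0.0189 in high-dose Sayeok-tang (SD, n = 3) and 1.05 ± 0.0811 in vehicle (SD, n = 3). In Scutellariae Radix it was 1.01 ± 0.0158 at the high and 1.06 ± 0.038 at the low dose (SD, n = 3 each), with every high-dose library below the low-dose ones. The ratio of KRT7 to KRT8 moved over a wider range, 0.561 to 1.26. It was 0.81 ± 0.0322 in high-dose and 0.607 ± 0.0199 in low-dose Sayeok-tang (SD, n = 3 each), and 0.838 ± 0.0315 in high-dose and 0.59 ± 0.0367 in low-dose Scutellariae Radix (SD, n = 3 each). In fresh ginger it was 0.656 ± 0.0149 at the high and 0.574 ± 0.0113 at the low dose (SD, n = 3 each). The high-dose libraries lay above the low-dose ones in all 3 extracts. Each of these 3 differences, and that of KRT8 to KRT18 in Scutellariae Radix, had an exact two-sided permutation p of 0.1, the smallest that 3 against 3 libraries can give. That is 0.25 after Benjamini-Hochberg adjustment over the 10 ratio tests, so none passed the threshold. In high-dose dried ginger KRT7 exceeded KRT8 per kb, with a mean ratio of 1.08, as it did in the high-dose Coptidis Rhizoma library with 1.26.

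**Figure D4:**
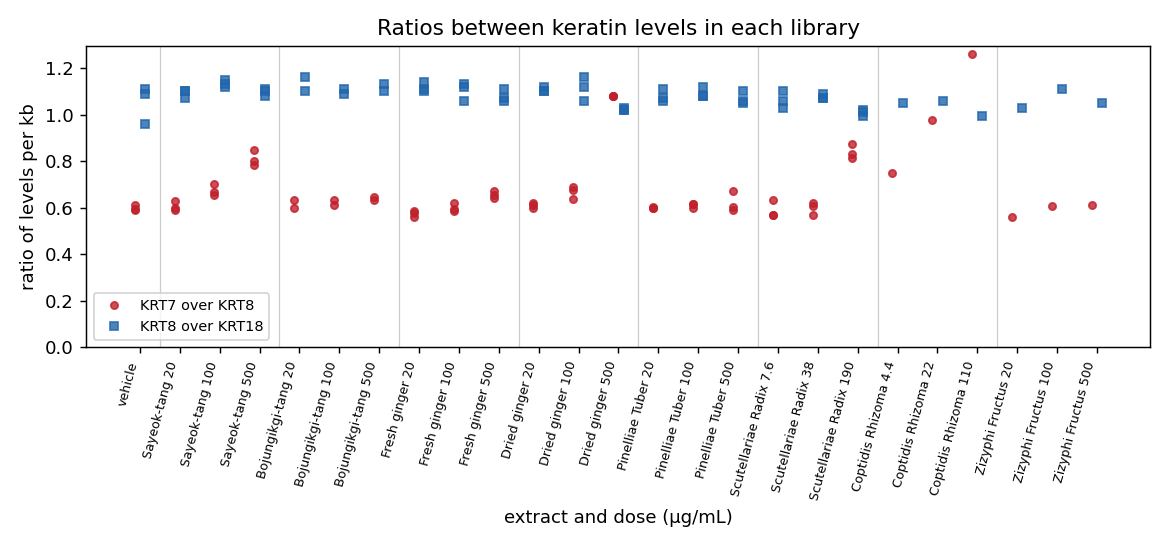
Ratio of KRT7 to KRT8 (circles) and of KRT8 to KRT18 (squares), each from levels per kb, in every library, with vehicle at the left and each extract's doses in µg/mL rising to the right. The KRT8 to KRT18 ratio stays between 0.96 and 1.16, while the KRT7 to KRT8 ratio is about 0.6 in vehicle. At the high doses the KRT7 to KRT8 ratio is 0.81 in Sayeok-tang, 0.838 in Scutellariae Radix, 1.08 in dried ginger and 1.26 in Coptidis Rhizoma.

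Against vehicle, KRT8 and KRT18 had lower mean levels in every extract group, the low doses included. The vehicle group had the highest mean of all 25 groups for KRT8 and for KRT18, and 56 of 57 extract libraries lay below the lowest vehicle library for KRT8 and 54 of 57 for KRT18. At the low dose (Sayeok-tang 3 of 7 keratins called, 8.32% of all genes; Bojungikgi-tang 5, 6.94%; fresh ginger 5, 6.48%; Pinelliae Tuber 4, 5.51%; Scutellariae Radix 4, 8.91%), KRT7 and KRT8 were called lower than vehicle in 5 of 5 replicated extracts other than dried ginger, KRT80 in 4 of 5, and KRT18 and KRT81 in 3 of 5. The low-dose changes were small, -0.21 to -0.13 for KRT7 and -0.17 to -0.12 for KRT8. Many of these calls were lost when 1 library was left out. The KRT8 call held without any 1 library in Sayeok-tang and Bojungikgi-tang, but was lost in 5 of 6 such fits in fresh ginger (adjusted p up to 0.147), all but that without low-dose library 1, and in 5 of 6 in Scutellariae Radix (adjusted p up to 0.264), all but that without low-dose library 3. In Pinelliae Tuber it was lost without low-dose library 2 or 3 or vehicle library 1 (adjusted p up to 0.135). The KRT7 call held in Sayeok-tang, but was lost in Bojungikgi-tang without low-dose library 3 (adjusted p = 0.257) and in fresh ginger without low-dose library 2 or 3 or vehicle library 3 (up to 0.0894). It was also lost in 5 of 6 fits in Pinelliae Tuber (up to 0.214), all but that without low-dose library 1, and in 5 of 6 in Scutellariae Radix (up to 0.16), all but that without low-dose library 3. The KRT18 calls held in all such fits. The KRT80 call held in fresh ginger and Scutellariae Radix, but was lost in 5 of 6 fits in Pinelliae Tuber (adjusted p up to 0.133), all but that without vehicle library 2, and in Bojungikgi-tang without either low-dose library or vehicle library 1 (up to 0.248). The KRT81 call was lost in 5 of 6 fits in Pinelliae Tuber (adjusted p up to 0.207), all but that without low-dose library 1, in 4 of 5 in Bojungikgi-tang (up to 0.33), all but that without low-dose library 2, and in fresh ginger without vehicle library 3 (adjusted p = 0.0746). Vehicle and extract libraries carry different set numbers in the labels, so handling and treatment cannot be told apart in these comparisons, all of which share the 3 vehicle libraries. KRT4 and KRT19 were called lower than vehicle at the low dose in none of these 5 extracts. The log2 changes were -0.11 to 0.22 for KRT4, called higher in Scutellariae Radix, and -0.14 to -0.03 for KRT19.

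At the high dose Sayeok-tang had 4 of 7 keratins called against vehicle (18.9% of all genes called), fresh ginger 6 (13.4%) and Bojungikgi-tang 4 (3.72%), all of them lower. Scutellariae Radix had 4 called, KRT7 higher and KRT4, KRT8 and KRT18 lower (40.3%), and Pinelliae Tuber had KRT4 called, higher (8.93%). For KRT4 the log2 change against vehicle was -0.88 ± 0.07 in Sayeok-tang (adjusted p = 5.29e-11), -0.46 ± 0.07 in Scutellariae Radix (adjusted p = 2.4e-06) and -0.32 ± 0.05 in fresh ginger (adjusted p = 0.000118). It was -0.31 ± 0.07 in Bojungikgi-tang (adjusted p = 0.0131), lost without either Bojungikgi-tang library (adjusted p = 0.0995 and 0.134). It was 0.29 ± 0.06 in Pinelliae Tuber (adjusted p = 0.00373). The KRT81 call in Sayeok-tang (-0.25 ± 0.08, adjusted p = 0.0431) was lost without any 1 of the 6 libraries (adjusted p up to 0.138). The KRT7 call in Bojungikgi-tang (-0.14 ± 0.03, adjusted p = 0.014) did not hold without high-dose library 3 (log2 change -0.11).

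At the medium dose Sayeok-tang had 4 keratins called (10.8% of all genes called), Pinelliae Tuber 5 (7.19%) and Bojungikgi-tang 2 (1.92%), all lower. The KRT19 call in Sayeok-tang was lost in 4 of 6 fits without 1 library (adjusted p up to 0.306). In Pinelliae Tuber only the KRT8 call held in all such fits, and those of KRT7, KRT18, KRT19 and KRT81 did not (adjusted p up to 0.214). Neither Bojungikgi-tang call held without medium-dose library 2 (log2 change -0.08 for KRT8 and -0.16 for KRT18). In fresh ginger KRT80 was called, lower (0.770%), and in Scutellariae Radix KRT4, higher (0.24 ± 0.07, adjusted p = 0.0162; 8.91% of all genes), a call lost in 4 of 6 fits without 1 library (adjusted p up to 0.128; vehicle libraries 1 and 2 and medium-dose libraries 1 and 3). Of these 5 extracts, Sayeok-tang had the only KRT4 call below vehicle at the medium dose (-0.45 ± 0.07, adjusted p = 4.18e-05); the log2 change was -0.08 in Bojungikgi-tang and -0.09 in Pinelliae Tuber, and the difference between extracts was not tested. In fresh ginger, medium-dose library 2, the shallowest of the 60 at 17.51 M counts, had the group's highest KRT7, KRT8, KRT18, KRT19 and KRT81, at 2274, 3670, 2642, 22.8 and 4793 CPM. Without it 5 keratins were called there in place of 1, and without vehicle library 1 there were 0 (0.770% of all genes in the full fit, where 4 keratins had an unadjusted p under 0.05 and DESeq2 called 2). The higher KRT4 in low-dose Scutellariae Radix (0.22 ± 0.07, adjusted p = 0.0357) was lost without any 1 of the 6 libraries (adjusted p up to 0.13).

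Dried ginger against vehicle is given as values. At the high dose the log2 change was -0.86 ± 0.05 for KRT8, -0.82 ± 0.05 for KRT18, -0.21 ± 0.05 for KRT81, 0.35 ± 0.08 for KRT19, -0.08 ± 0.04 for KRT80 and 0.00 ± 0.05 for KRT7. In 6 of 7 keratins, all but KRT7, the libraries did not overlap with vehicle, as in 49.9% of all genes, and edgeR called 39.2% of all genes. At the medium dose KRT4 was at -0.49 ± 0.05 (6.14% of all genes called) and at the low dose at -0.05 ± 0.05 (3.60%).

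**Figure D5:**
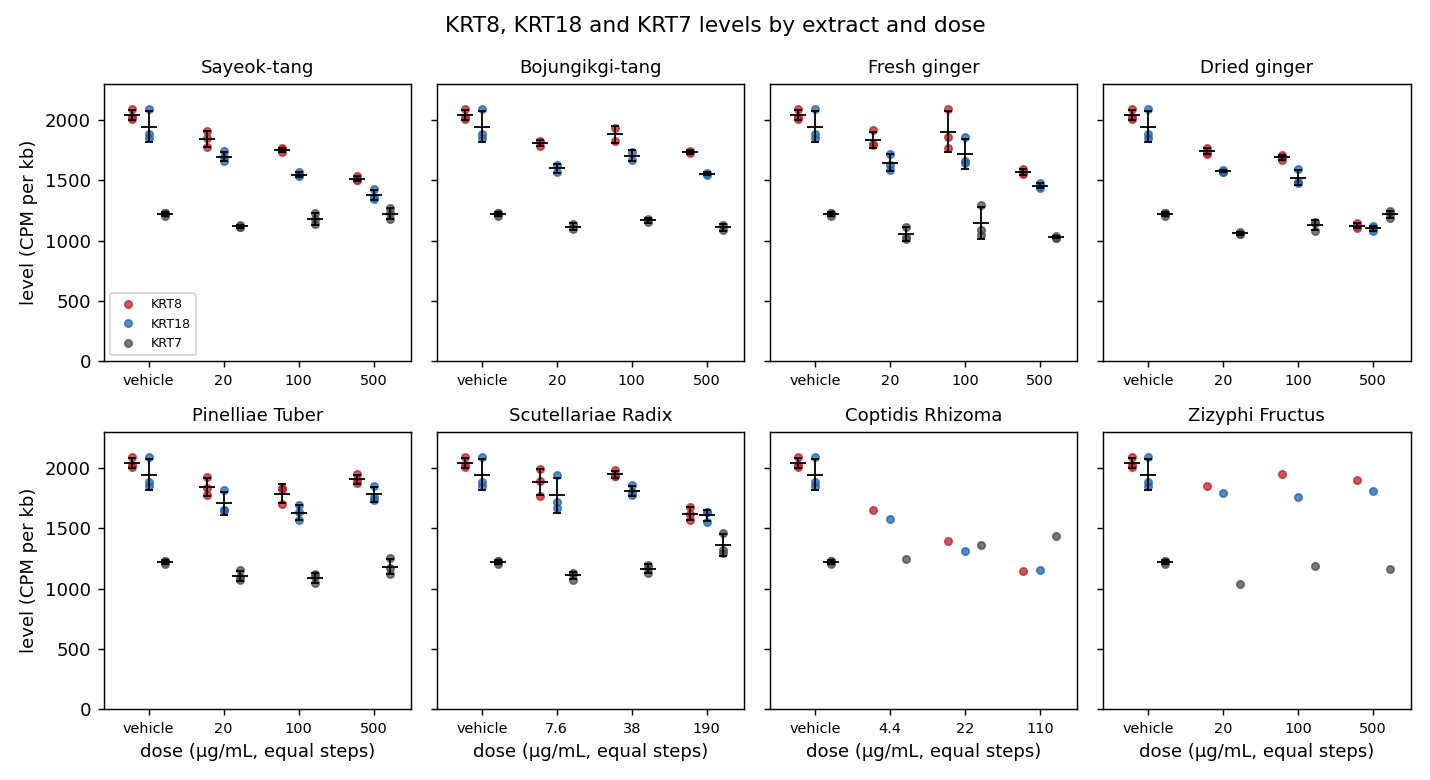
KRT8, KRT18 and KRT7 levels in CPM per kb (linear axis from 0) in each library, 1 panel per extract, with vehicle and then doses in µg/mL rising to the right in equal steps; points are libraries and black bars the mean ± SD. The KRT8 and KRT18 means are highest in vehicle, and KRT7 lies below KRT8 except in high-dose dried ginger and Coptidis Rhizoma.

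The pair of water-extracted formulas could be compared directly at 500 µg/mL. Sayeok-tang had lower KRT4, KRT8 and KRT18 and higher KRT7 than Bojungikgi-tang, 4 of 7 keratins called beside 2.05% of all genes. KRT4 was 16, 18.2 and 13.1 CPM in Sayeok-tang, against 23.8 and 22.8 CPM in Bojungikgi-tang (-0.57 ± 0.08, adjusted p = 2.06e-05). KRT8 was 2636, 2698 and 2632 CPM in Sayeok-tang, against 3068 and 3030 CPM in Bojungikgi-tang (-0.20 ± 0.03, adjusted p = 5.78e-05). KRT18 differed by -0.18 ± 0.04 (adjusted p = 0.00558) and KRT7 by 0.14 ± 0.03 (adjusted p = 0.0174). The libraries of the 2 formulas did not overlap for 6 of the 7 keratins, these 4 genes with KRT19 and KRT80, which were not called. The same held for 28.8% of all genes. The KRT18 call was lost without either Bojungikgi-tang library (adjusted p = 0.0835 and 0.125), and the KRT7 call without Sayeok-tang library 2 or 3 or Bojungikgi-tang library 3 (adjusted p up to 0.286). The change between low and high dose was also compared between the formulas, and that difference was called for KRT4, KRT8 and KRT18, 3 of 7, beside 0.275% of all genes. The KRT18 difference was called in 2 of the 10 fits that left out 1 library.

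Fresh and dried ginger at 500 µg/mL are set side by side with no test. KRT4 was 22.3, 22.9 and 24 CPM in fresh ginger, against 5.2, 5.4 and 6.03 CPM in dried ginger, a 4.11-fold higher level in fresh ginger (log2 change 2.04 ± 0.07). KRT8 was higher in fresh ginger by 0.48 ± 0.05 and KRT18 by 0.40 ± 0.05. KRT19 was lower in fresh ginger by log2 -0.35 ± 0.08, KRT7 by -0.24 ± 0.05 and KRT80 by -0.13 ± 0.04. In 6 of the 7 keratins the libraries of the 2 extracts did not overlap, KRT81 being the exception, as in 39.6% of all genes, and edgeR called 22.5% of all genes.

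Coptidis Rhizoma had 1 library per dose, so its values have no replicate check and no test. KRT4 was 30.4 CPM at 4.4 µg/mL, 20.1 CPM at 22 µg/mL and 13.4 CPM at 110 µg/mL, against 27.8 to 30.2 CPM in vehicle. KRT8 was 2907, 2445 and 2008 CPM and KRT18 was 2239, 1861 and 1637 CPM at the same rising doses, all below the vehicle libraries. KRT7 was 2182, 2390 and 2526 CPM, above the vehicle libraries, and KRT19 was 24.5, 26.3 and 30.6 CPM, within them at the low dose and above them at the others. At the high dose the log2 ratio to the vehicle mean was -1.08 for KRT4, -0.83 for KRT8, -0.75 for KRT18, 0.43 for KRT19, 0.24 for KRT7 and 0.24 for KRT80. KRT4 alone passed a size rule of at least 1 in log2 outside the vehicle range, which 1.60% of 10958 genes passed. No keratin passed it at the medium dose (0.603% of genes) or the low dose (0.238%).

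Zizyphi Fructus had no keratin past that rule at any dose (0.0916% of genes passed at the high, 0.101% at the medium and 0.101% at the low dose). KRT4 was 34.5 CPM at 20 µg/mL, 28.6 CPM at 100 µg/mL and 30.1 CPM at 500 µg/mL. KRT8 lay between 3254 and 3428 CPM, below the vehicle libraries at all 3 doses.

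Other genes followed KRT4 over the groups, as measured by Pearson's r of the mean log2(CPM + 0.5) among the 10973 genes that averaged 5 CPM or more. Over the 25 groups the 5 most alike were GPX2 (r = 0.931), a glutathione peroxidase gene, FGA (0.923), the fibrinogen alpha chain, RNF43 (0.911), H19 (0.911) and RHPN2 (0.904). Over the 22 groups without dried ginger they were RAB15 (0.943), VTN (0.921), which encodes vitronectin, GPX2 (0.91), BCAS1 (0.91) and NEDD4L (0.892). GPX2 was in both sets, and RAB15 lies close to it on chromosome 14 (GPX2 at chr14:64939152-64942905 and RAB15 at chr14:64945814-64973226). Among keratins, KRT18 had r = 0.889 with KRT4 and KRT8 had 0.884 over the 25 groups, while KRT81 had 0.07, KRT80 -0.286, KRT7 -0.447 and KRT19 -0.677. Over the 22 groups without dried ginger, whose values chose KRT4, r with KRT4 was 0.879 for KRT18, 0.857 for KRT8, -0.06 for KRT81, -0.508 for KRT80, -0.613 for KRT7 and -0.577 for KRT19, so that of KRT81 changed sign and that of KRT80 was larger in size.

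The gene most like KRT18 among the same 10973 was KRT8, with r = 0.975 over the 25 groups and 0.966 over the 22 without dried ginger. The next were MMP24 (0.945), LBH (0.94), TM4SF4 (0.939) and PDXK (0.938) over the 25 groups, and MMP24 (0.933), NTS (0.926), CTSB (0.925) and CXXC5 (0.924) over the 22. The groups share vehicle, set and scaling, so these values describe the pattern only.

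Of the other keratins, few were detected. Among the 54 type I and type II keratin genes of the 2 lists, 10 averaged at least 1 CPM, the 7 members with KRT10 (31.3 CPM), KRT86 (23.3 CPM) and KRT83 (2.24 CPM), and 41 averaged under 0.1 CPM. KRT13, the usual partner of KRT4, averaged 0.0106 CPM and was at 0 in 47 of 60 libraries. The basal pair KRT5 and KRT14 averaged 0.0631 and 0.026 CPM. KRT86 was below vehicle in every replicated group, by log2 -0.56 ± 0.22 in medium-dose Bojungikgi-tang to -1.01 ± 0.21 in high-dose Scutellariae Radix. Outside dried ginger it was called at the medium dose of Sayeok-tang (adjusted p = 0.0248) and the high doses of fresh ginger (0.0115) and Scutellariae Radix (0.00112). In Pinelliae Tuber it was called at the high and medium doses (adjusted p = 0.0291 and 0.0161). Handling and treatment cannot be told apart in these comparisons, which all share the same vehicle libraries. KRT86 was not called between high and low dose in any tested extract. KRT10, a type I keratin of the suprabasal epidermis, did not pass the test between high and low dose in Sayeok-tang (0.18 ± 0.09, adjusted p = 0.274) or Scutellariae Radix (-0.01 ± 0.16, adjusted p = 0.966). KRT17, a type I keratin of injured and basal epithelium, fell in Sayeok-tang (-1.50 ± 0.40, adjusted p = 0.0139) at a mean of 0.481 CPM. DESeq2 gave KRT17 no adjusted p, and the call was lost without Sayeok-tang library 3 of the high dose (adjusted p = 0.0965) or of the low dose (adjusted p = 0.135).

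Of the genes that join keratin filaments to the cell edge, a minority were called. Among 22 desmosome and keratin linker genes, 17 were tested, and 2 were lower at the high than the low dose of Sayeok-tang, beside 7.58% of all genes called: DSP (desmoplakin, -0.35 ± 0.04, adjusted p = 4.75e-07), the anchor for keratin filaments, and JUP (plakoglobin, -0.36 ± 0.04, adjusted p = 7.75e-07). In Scutellariae Radix 5 of 17 were lower and 2 higher, beside 31.0% of all genes called, among them JUP (-0.29 ± 0.04, adjusted p = 3.18e-06) and ITGB4, the hemidesmosome integrin (0.50 ± 0.06, adjusted p = 6.57e-09). In fresh ginger 3 of 17 were lower, beside 3.67% of all genes called. The list's median log2 change was -0.01 in Sayeok-tang, 0.01 in Scutellariae Radix and -0.08 in fresh ginger.

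Tight-junction genes did not move one way. Of 18 epithelial junction genes tested in Sayeok-tang 2 rose and 2 fell, beside 7.58% of all genes called. Of 16 tested in Scutellariae Radix 3 rose and 2 fell, a share at the 31.0% of all genes called. CLDN1 rose in Sayeok-tang (0.42 ± 0.03, adjusted p = 2.67e-12) and in Scutellariae Radix (0.69 ± 0.03, adjusted p = 4.09e-19), and CLDN2 fell in both (-0.37 ± 0.06 and -0.46 ± 0.06). OCLN, which encodes occludin, rose by 0.31 ± 0.05 in Sayeok-tang and 0.61 ± 0.06 in Scutellariae Radix.

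Among the other intermediate filament genes 1 of 14 rose and 1 fell in Sayeok-tang (7.58% of all genes called), INA (0.22 ± 0.05, adjusted p = 0.00495) and SYNM (-0.13 ± 0.04, adjusted p = 0.0263). The INA call was lost without high-dose library 3 (adjusted p = 0.0681), and the SYNM call in 5 of 6 fits without 1 library (adjusted p up to 0.185), all but that without low-dose library 1. In Scutellariae Radix 3 of 13 rose and 5 fell (31.0% of all genes called), among them the lamin genes LMNB2 (-0.31 ± 0.03, adjusted p = 1.41e-09) and LMNB1 (-0.32 ± 0.04, adjusted p = 3.56e-07) and the nestin gene NES (-0.76 ± 0.11, adjusted p = 3.34e-07). VIM, the mesenchymal filament gene that A549 also makes, averaged 961 CPM with a range of 884 to 1183 CPM.

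Transcription factors known to act on epithelial keratin genes were a list of 26, with 25 tested. In Sayeok-tang 3 rose and 8 fell (7.58% of all genes called), led by FOSL1 (0.72 ± 0.06, adjusted p = 4.1e-12), ETS2 (-0.31 ± 0.04, adjusted p = 4.6e-07) and KLF5 (-0.24 ± 0.04, adjusted p = 3.72e-05). In Scutellariae Radix 7 rose and 8 fell (31.0% of all genes called), led by ETS1 (0.68 ± 0.05, adjusted p = 1.47e-13), JUN (0.61 ± 0.05, adjusted p = 5.52e-12) and ETS2 (-0.46 ± 0.04, adjusted p = 7.21e-12). In fresh ginger 2 rose and 7 fell (3.67% of all genes called). The list's median was -0.09, 0.03 and -0.05 in these 3 extracts, beside medians over all genes of -0.001, 0.004 and 0.001.

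Genes of stratified squamous differentiation, the setting in which KRT4 is usually made, were mostly near or at 0. Of 21, between 9 and 10 could be tested, and SPRR1A, SPRR1B, SPRR2A and SPRR3 were at 0 in all 60 libraries. Not all were low, with CSTB at a mean of 73.9 CPM, TP63 at 9.03 CPM and CNFN at 6.15 CPM. In Sayeok-tang 0 of 10 were called (3 at an unadjusted p under 0.05, 0 by DESeq2), beside 7.58% of all genes. In Scutellariae Radix 2 of 9 rose, a share below the 31.0% of all genes called, CSTA (1.40 ± 0.32, adjusted p = 0.000599) and RHCG (0.41 ± 0.13, adjusted p = 0.0142), at means of 0.739 and 3.08 CPM. DESeq2 gave CSTA no adjusted p and did not call RHCG (adjusted p = 0.0668), and the RHCG call was lost without high-dose library 1 (adjusted p = 0.0772) or low-dose library 2 (adjusted p = 0.0938).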

How the data were processed

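RNA was sequenced from 60 A549 libraries in 25 groups, taken from the labels. Per the submitters' processing notes, FastQC 0.11.9, Trim Galore 0.6.5, STAR 2.7.3a and RSEM 1.3.3 were used with hg38; the annotation release and strand setting of the counting are not given in the sources used here. Values in the deposited table are the authors' expected counts for 60675 gene IDs; 24.4% of the non-zero values were not whole, and all were rounded. Of its columns, 209 belong to no sample here and were not used. Fits used edgeR 4.0.16 (R 4.3.3): a minimum count of 10 (filterByExpr), TMM, the quasi-likelihood F-test and Benjamini-Hochberg adjustment over all genes tested, with a threshold of 0.05. Each fit held 2 extracts with vehicle (Sayeok-tang and Bojungikgi-tang; fresh and dried ginger; Pinelliae Tuber and Scutellariae Radix). Printed CPM use TMM over all 60 libraries. Fold values of Coptidis Rhizoma and Zizyphi Fructus add 0.5 CPM. Alternatives were RLE factors, no filter, DESeq2 1.42.0, 1 fit of all libraries, a replicate block and leaving out each library; the test of the difference in dose change was added after seeing the data. Simulated counts were used only to try edgeR's high against low dose contrast in the fits of Sayeok-tang and of Scutellariae Radix. The members and lists were chosen with earlier results of these data known. Named genes are the 7 members, other keratins of at least 1 CPM, up to 3 genes per list with the lowest p in the Sayeok-tang and Scutellariae Radix dose contrasts, members of marker lists at 0, and the 5 genes most like KRT4 and KRT18. KRT13, KRT5, KRT14, VIM, PTPRC, PECAM1, DCN, CSTB, TP63, CNFN and the SPRR genes were named after their values were seen.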

Additional observations from a re-analysis of the deposited data

Results flagged for a closer look

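The change of KRT4, KRT8 and KRT18 between the low and high dose differed between Sayeok-tang and Bojungikgi-tang in a test of the difference itself, edgeR's quasi-likelihood test with Benjamini-Hochberg adjustment over 16723 genes, of which 0.275% were called. For KRT4 the log2 change was -0.80 in Sayeok-tang and -0.19 in Bojungikgi-tang, a difference of -0.61 ± 0.11 (SE, adjusted p = 0.00388). It ranged from -0.72 to -0.50 when each library was left out, and was called in 8 of 10 such fits. For KRT8 the change was -0.29 in Sayeok-tang and -0.06 in Bojungikgi-tang, a difference of -0.23 ± 0.04 (adjusted p = 0.00636), called in 9 of 10 such fits. For KRT18 the change was -0.30 in Sayeok-tang and -0.04 in Bojungikgi-tang, a difference of -0.26 ± 0.05 (adjusted p = 0.0147), called in 2 of 10 such fits (adjusted p up to 0.223). Bojungikgi-tang had 2 libraries per dose.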

How the results depend on the processing

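Counts of keratins called moved by more than 1.5 times under these alternatives. Against vehicle, medium-dose Bojungikgi-tang had 2 called, but 1 without a count filter, 1 with the replicate block and 0 in the fit of all 60 libraries. Medium-dose fresh ginger had 1, but 2 without a filter, in the fit of all libraries and by DESeq2. High-dose Pinelliae Tuber had 1, but 4 without a filter and 3 by DESeq2 and with the block. Medium-dose Scutellariae Radix had 1, but 2 without a filter and with the block, and low-dose Scutellariae Radix had 4, but 2 in the fit of all libraries. High against low dose of Pinelliae Tuber had 0, but 1 without a filter, in the fit of all libraries, by DESeq2 and with the block. Sayeok-tang against Bojungikgi-tang had 4, but 2 in the fit of all libraries, and their difference in dose change 3, but 1 there. The causes were not tested.

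Leaving out 1 library at a time gave 2 to 4 calls against vehicle for high-dose and 0 to 2 for medium-dose Bojungikgi-tang, 2 to 4 for its low dose, 0 to 5 for medium-dose and 2 to 5 for low-dose fresh ginger, 1 to 2, 1 to 5 and 0 to 4 for high-, medium- and low-dose Pinelliae Tuber, and 0 to 1 and 1 to 5 for medium- and low-dose Scutellariae Radix. It gave 2 to 4 for Sayeok-tang against Bojungikgi-tang and 1 to 3 for the difference in dose change. Over 735 keratin values from the 21 tested comparisons under the other alternatives, 677 kept direction and side of the threshold, 2 that were not called changed sign and stayed uncalled, 21 lost and 35 gained a call, and no called value changed sign. Of 840 leave-one-out values, 698 kept both, 30 changed sign uncalled, 98 lost and 14 gained a call. Calls of keratins in dried ginger comparisons were not counted; all 385 of their log2 changes under the alternatives moved by less than 1 SD between libraries. The labels state no pairing, and same-numbered libraries had correlations of -0.0512 to 0.0989 over 73 pairs in their deviations from the group means. The replicate numbers were therefore not read as pairing. Low correlations over all genes cannot exclude a shared run, and the replicate block changed some calls, as given above. Depth limits KRT4 (122 to 928 counts per library) and KRT19 (393 to 1074) most among the 7 keratins.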
